A study of Homo sapiens with 6 samples.

Results

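The amino acid and neurotransmitter transporters examined here are 50 protein-coding genes of the solute carrier (SLC) families SLC1, SLC6, SLC7, SLC36, SLC38 and SLC43, out of 30987 genes in the count table. They were chosen by symbol, and SLC7A5 and SLC7A11 were left out of the rule and are described beside the members. The rule also takes in SLC7A6OS, which lies opposite SLC7A6 and is not a carrier. HepG2 cells, a human liver tumor line, were transfected with PAIP1 siRNA (siPAIP1) or with non-target control siRNA (Ctrl) and harvested after 48 h, with 3 biological replicates in each group. PAIP1 binds the poly(A)-binding protein and promotes translation initiation. All 6 libraries came from poly(A) RNA of a single line, and the knockdown was made with 1 of the siRNA duplexes of the study. The labels give DMEM as the culture medium and the methods of the study give MEM.

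These carriers move amino acids and related small molecules across membranes. SLC1 members take up glutamate or small neutral amino acids, and SLC6 members use sodium and chloride to take up transmitters, osmolytes such as betaine and taurine, or amino acids. SLC7 holds uniporters for cationic amino acids and light chains that work only when joined to a heavy chain, SLC3A2 or SLC3A1. SLC36 carriers are driven by protons, SLC38 carriers move glutamine and other small neutral amino acids, and SLC43 carriers move large neutral amino acids. In liver, uptake of glutamine and arginine feeds ammonia disposal and the urea cycle.

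The libraries held 29313211 to 34659866 counted fragments. PAIP1 mRNA was at 94.5, 81.5 and 89.9 CPM (counts scaled by the size of each library) in Ctrl replicates 1 to 3 and at 27.8, 21.7 and 20.1 in siPAIP1. The groups did not overlap, and the log2 fold change was -1.93 with an SE of 0.13 (adjusted p = 0.000918 by edgeR's quasi-likelihood test). Of 9247 genes at a mean CPM of 10 or more, 357 stood over 2-fold above the rest of the group in siPAIP1 replicate 3, against at most 7 in any other library, so results that rest on that library are given without it. The 8 hepatocyte markers checked were all present, with the lowest peaking at 30.5 FPKM (fragments scaled to exon length and library size). Their summed FPKM was 2663 to 2831 in Ctrl and 1509 to 2340 in siPAIP1, with the 1509 in siPAIP1 replicate 3. At an adjusted p under 0.05, ALB, APOA1, SERPINA1 and TTR were lower (log2 fold change -0.77 to -0.45). AFP, APOB, FGB and HNF4A had no call (-0.46 to -0.05). The sum thus moved with the groups through some of the markers, and its part in the results below was not tested. Markers of neurons, astrocytes, fibroblasts and endothelial cells stayed below 0.5 FPKM in each library. Of the leukocyte markers, PTPRC was at 0 FPKM in each library and CD14 was at most 0.3. In such bulk RNA, fewer cells of a kind and less mRNA in each cell cannot be told apart.

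The levels of the carriers spanned a wide range in Ctrl. SLC38A2, a sodium-coupled carrier of small neutral amino acids, had the highest mean FPKM, 53.2 ± 2.48 (SD, n = 3). SLC1A5, the main glutamine exchanger of many tumor lines, followed at 49.9 ± 1.96, and its highest Ctrl library (51.95) passed the lowest of SLC38A2 (51.3). SLC43A1, a carrier of branched-chain and aromatic amino acids, came next at 28.0, then SLC38A3 at 20.4 and SLC38A10 at 19.2. The next 5 members by FPKM were SLC38A5 (16.03), SLC6A8 (15.8), SLC7A6 (12.2), SLC6A6 (8.72) and SLC1A4 (8.16). Thus amino acid carriers led the list, together with the creatine carrier SLC6A8 and the taurine carrier SLC6A6. In all, 27 members had a mean of at least 1 FPKM in Ctrl and 20 had less than 0.2. The left-out SLC7A5 (121 FPKM) and its heavy chain SLC3A2 (109 FPKM) stood above every member.

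**Figure D1:**
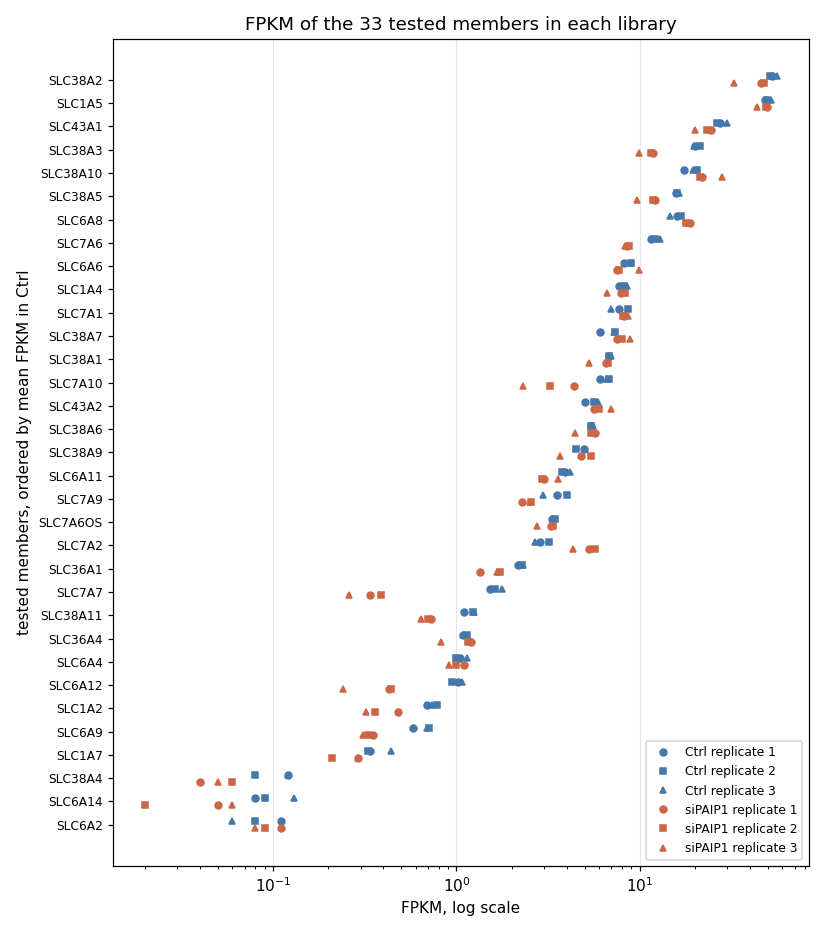
FPKM (log axis) of the 33 members that passed the filter on low counts, 1 symbol per library, blue for Ctrl and orange for siPAIP1, ordered by the mean in Ctrl. The members span from below 0.2 FPKM (SLC6A2, SLC6A14, SLC38A4) to over 50 FPKM (SLC38A2), and the orange symbols of SLC7A7, SLC6A12 and SLC7A10 lie left of the blue ones.

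To compare the groups, all genes were tested together, and 33 of the 50 members passed the filter on low counts. Of these 33, 11 were lower and 1 was higher in siPAIP1 at an adjusted p under 0.05, and 21 had no call. That is 33.3% of the tested members called lower, beside 6.2% of all 15528 tested genes, and 3.03% called higher, beside 5.68%. With the 2-fold threshold of the study, 4 members were lower differentially expressed genes (DEGs), or 12.1% beside 1.1% of all tested genes, and 0 were higher (beside 1.11%). DESeq2 and edgeR's exact test also gave 4 lower DEGs, and limma gave 2 and 0 with pseudocounts of 0.1 and 1 FPKM. Without Ctrl replicate 2 or Ctrl replicate 3 there were 2 lower DEGs. The count of higher DEGs was 0 in each of these fits. All 3 siPAIP1 libraries lay below all 3 Ctrl libraries for 20 members (60.6%, beside 17.6% of all tested genes) and above them for 2 (6.06%, beside 19%). An unadjusted p under 0.05 was met by 18 members, beside 28.6% of all tested genes, and SLC7A2 was the only one of the 18 that was higher. The log2 fold change was negative for 26 of the 33, beside 45.1% of all tested genes. The median log2 fold change over the tested members was -0.34, and over all tested genes 0.034. SLC38A4 and SLC6A14 passed the filter only through their Ctrl libraries, which favors lower values in siPAIP1. Both are counted among the 20, the 18 and the 26 and in the median of the members, and neither had a call. Without siPAIP1 replicate 3, 16 members were lower and 1 higher, beside 3808 of 15732 tested genes called in either direction. Leaving out 1 Ctrl library or siPAIP1 replicate 2 gave 7 to 8 lower and 1 higher, with fewer libraries in each fit. In those fits 463 to 683 of 15867 to 16025 tested genes were called. Without both siPAIP1 replicate 3 and Ctrl replicate 2, which had the next most genes apart from its group, 18 were lower and 3 higher. That fit called 4915 of 15486 tested genes, and the fit on all libraries 1845 of 15528, so the calls over all genes moved as well.

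**Figure D2:**
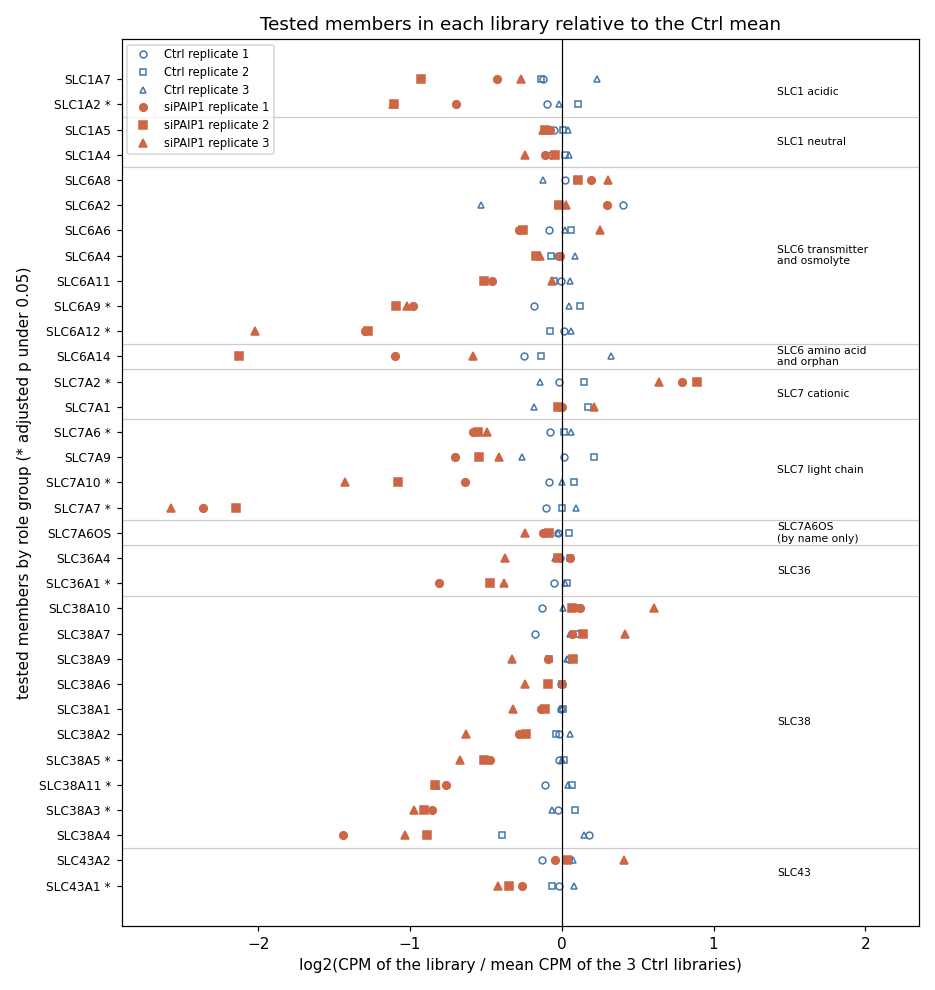
Log2 of the CPM of each library relative to the Ctrl mean (n = 3) for the 33 tested members, by role group, with open blue symbols for Ctrl and filled orange symbols for siPAIP1. An asterisk marks the 12 members with an adjusted p under 0.05, and SLC7A2 is the called member right of 0.

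Promoters were read for the members because 11 of them were lower together. RefSeq promoter sequences (GRCh38.p14) matched 41 of the 50 members, among them 27 of the 33 tested and 8 of the 11 lower ones; SLC1A2, SLC6A12 and SLC38A3 had no entry. In the 250 bases before the start, 5 motifs were searched on both strands. The amino acid response core TGATGNAA, known for the factor ATF4, was in 0 of the 8 lower members and in 3.19% of 27305 promoters. The E-box CACGTG was in 2 of the 8 (SLC38A5 and SLC43A1), in 3 of the 27 tested members and in 6.49% of all promoters. Outside the lower members it was also in SLC1A7, which had no call, and in SLC6A16, which was not tested. TATAAA was in 0 of 8 (11.1% of all), the hepatocyte factor motifs GTTAAT in 0 of 8 (6.22%) and CAAAGTCCA in 0 of 8 (0.293%). No motif overlapped another in the sequences printed. The promoters below are those of the member with the largest fall, with no motif of the 5, and of the 2 lower members with an E-box, which is in capitals 206 bases before the start in SLC38A5 and 112 bases in SLC43A1. All 3 are on the minus strand and are printed 5′ to 3′ on the gene's strand.
SLC7A7, chr14:22819792-22820041: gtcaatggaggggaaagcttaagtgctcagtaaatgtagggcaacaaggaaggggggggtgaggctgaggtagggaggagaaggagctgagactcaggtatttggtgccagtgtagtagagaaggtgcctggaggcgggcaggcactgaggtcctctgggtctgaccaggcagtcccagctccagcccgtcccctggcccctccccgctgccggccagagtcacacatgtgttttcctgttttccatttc
SLC38A5, chrX:48470261-48470510: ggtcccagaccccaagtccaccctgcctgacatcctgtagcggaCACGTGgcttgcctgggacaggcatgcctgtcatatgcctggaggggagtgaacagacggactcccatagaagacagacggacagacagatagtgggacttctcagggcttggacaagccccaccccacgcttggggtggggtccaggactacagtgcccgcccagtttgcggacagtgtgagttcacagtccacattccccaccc
SLC43A1, chr11:57515703-57515952: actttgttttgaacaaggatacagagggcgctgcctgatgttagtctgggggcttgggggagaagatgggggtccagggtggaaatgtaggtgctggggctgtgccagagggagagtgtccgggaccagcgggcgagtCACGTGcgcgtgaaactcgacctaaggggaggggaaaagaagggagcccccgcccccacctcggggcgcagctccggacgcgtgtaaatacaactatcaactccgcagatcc
These windows were 58.8%, 60.8% and 60.8% G or C, beside a median of 58.0% over all promoters and 64.0% over the tested members. The RefSeq starts used for SLC7A7 and SLC43A1 lie inside the spans of these genes in GENCODE 44, which begin farther upstream. Other starts were not searched, and the E-box distance in SLC43A1 holds for this start.

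The light chains of SLC7 held the largest fall. SLC7A7, which exports arginine and lysine in exchange for neutral amino acids and sodium, had 4.61, 4.94 and 5.28 CPM in Ctrl and 0.961, 1.11 and 0.829 in siPAIP1. All siPAIP1 values were far below all Ctrl values, and the raw counts were 154, 164 and 161 against 33, 39 and 25. The log2 fold change was -2.34 (SE 0.17, adjusted p = 0.000918), which leaves a fold of 0.197. Here and below, adjusted p-values are those of the edgeR quasi-likelihood fit unless another tool is named. SLC7A7 lies on the minus strand of chromosome 14 (chr14:22773222-22829820, GRCh38). By GENCODE 44, no other gene of the count table shares exon sequence with it, and genes outside that table were not checked.

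SLC7A6, a light chain with the same kind of exchange, was at 81.7, 87.2 and 89.8 CPM in Ctrl and 57.4, 58.7 and 61.3 in siPAIP1 (log2 fold change -0.54, SE 0.071, adjusted p = 0.00532). The groups did not overlap, and the fall was the smaller of the pair. The FPKM of SLC7A7 over that of SLC7A6 was 0.135 ± 0.00274 for Ctrl and 0.0386 ± 0.00666 for siPAIP1 (mean ± SD of 3 libraries, two-sided exact permutation p = 0.1, the smallest that 3 against 3 libraries can give). SLC7A6 lies on chromosome 16 (chr16:68264516-68301823) and shares 3372 bases of exon with SLC7A6OS on the other strand. The libraries were directional per the labels, but whether the counting used strand was not stated, so reads of these genes may not be told apart. SLC7A6OS itself had 15.6, 16.4 and 15.6 CPM in Ctrl and 14.6, 14.9 and 13.4 in siPAIP1 (log2 fold change -0.15, SE 0.080, adjusted p = 0.262).

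SLC7A10, a sodium-independent exchanger of small neutral amino acids such as serine, alanine and glycine, had 13.3, 14.9 and 14.1 CPM in Ctrl and 9.06, 6.69 and 5.24 in siPAIP1. The siPAIP1 libraries differed among themselves more than the Ctrl libraries, and all lay below Ctrl (log2 fold change -1.01, SE 0.19, adjusted p = 0.0156). The adjusted p was 0.0608 to 0.0756 without Ctrl replicate 1, 2 or 3 or siPAIP1 replicate 2, and without siPAIP1 replicate 3 the change was -0.85, short of the 2-fold threshold. Its exons overlap those of LRP3 on the other strand. SLC7A9, the cystine and dibasic amino acid carrier of kidney and gut, had 7.03, 8.05 and 5.80 CPM in Ctrl and 4.28, 4.77 and 5.24 in siPAIP1 (log2 fold change -0.55, SE 0.15, adjusted p = 0.0581). It missed the threshold in this fit, and passed without siPAIP1 replicate 3 (-0.63, adjusted p = 0.00487), by DESeq2 (adjusted p = 0.0416) and by edgeR's exact test (adjusted p = 0.0442). SLC7A9 did not pass without any other single library (0.0701 to 0.173) or with a replicate block (0.121). Limma on FPKM did not call it either (0.0585 and 0.0651 with pseudocounts of 0.1 and 1). The remaining light chain, SLC7A8, had 0 to 5 counts in any library and was not tested.

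The heavy chain SLC3A2, which carries most of these light chains to the cell surface, is not a member. It was at 318, 304 and 342 CPM in Ctrl and 218, 213 and 198 in siPAIP1 (log2 fold change -0.61, SE 0.078, adjusted p = 0.00505). SLC3A1, the heavy chain that pairs with SLC7A9, had 0 to 7 counts and was not tested, although SLC7A9 was at 3.52 FPKM in Ctrl. SLC7A5, the light chain for large neutral amino acids, had 566, 675 and 618 CPM in Ctrl and 363, 354 and 468 in siPAIP1 (log2 fold change -0.65, SE 0.13, adjusted p = 0.0192). SLC7A11, which exchanges cystine for glutamate, went from 14.9, 14.9 and 14.8 CPM to 11.3, 10.3 and 11.04 (log2 fold change -0.45, SE 0.078, adjusted p = 0.0133). The heavy chain and both left-out light chains were thus lower in each siPAIP1 library than in any Ctrl library. Leaving out 1 library took the adjusted p above 0.05 for SLC7A5 without Ctrl replicate 1, 2 or 3 or siPAIP1 replicate 1 or 2 (0.0535 to 0.0877). For SLC7A11 this was so without Ctrl replicate 1, 2 or 3 or siPAIP1 replicate 2 (0.0538 to 0.0679), and not for SLC3A2 (at most 0.0383). The SLC7A11 call was also lost with a replicate block (adjusted p = 0.0558) and by limma on FPKM (0.0837 and 0.0619 with pseudocounts of 0.1 and 1).

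**Figure D3:**
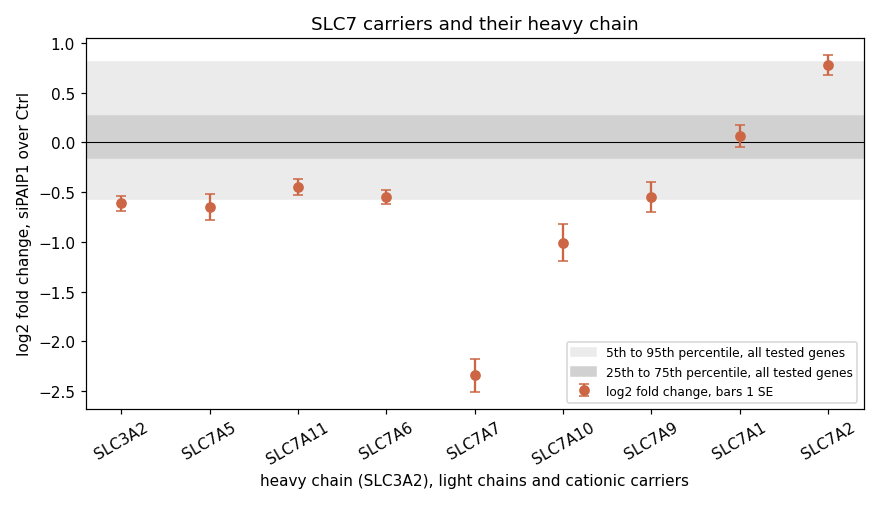
Log2 fold change of siPAIP1 over Ctrl with bars of 1 SE (edgeR, n = 3 libraries per group) for the heavy chain SLC3A2, SLC7 light chains and the cationic carriers SLC7A1 and SLC7A2. Gray bands span the 5th to 95th and the 25th to 75th percentile of all tested genes (-0.57 to 0.81 and -0.16 to 0.27), and SLC7A7 and SLC7A10 lie farthest below the wider band, with SLC3A2 and SLC7A5 just under its edge.

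Among the cationic amino acid carriers, SLC7A2 was the called rise of the whole set. This carrier of arginine, lysine and ornithine, whose liver form is known for low affinity and high capacity, lies on chromosome 8. It had 25.3, 28.4 and 23.2 CPM in Ctrl and 44.5, 47.5 and 39.9 in siPAIP1 (log2 fold change 0.78, SE 0.10, adjusted p = 0.00572). Every siPAIP1 library was above every Ctrl library, and the call was kept under each of the 17 alternatives (log2 fold change 0.64 to 0.92). SLC7A1, the widely expressed carrier of the same substrates, had 63.4, 71.8 and 56.3 CPM in Ctrl and 63.9, 62.8 and 73.9 in siPAIP1, with overlapping groups (log2 fold change 0.067, SE 0.11, adjusted p = 0.718). The value of SLC7A1 turned to -0.0213 without Ctrl replicate 3 and to -0.0143 without siPAIP1 replicate 3. In FPKM, SLC7A2 stood at 0.374 ± 0.00743 of SLC7A1 for Ctrl and at 0.617 ± 0.104 for siPAIP1 (mean ± SD of 3 libraries, two-sided exact permutation p = 0.1, the smallest possible). The uptake carrier SLC7A2 and the exporter SLC7A7 thus changed in opposite directions at the mRNA level. SLC7A14, a lysosomal relative, had 1 to 6 counts and was not tested.

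The glutamine carriers of SLC38 gave 3 falls and 7 members without a call among 10 tested. SLC38A3, which exchanges glutamine, asparagine and histidine for protons and is prominent in liver, had 66.2, 71.7 and 64.6 CPM in Ctrl and 37.4, 36.03 and 34.3 in siPAIP1 (log2 fold change -0.91, SE 0.076, adjusted p = 0.00152). Its close relative SLC38A5, of the same transport system, had 55.4, 56.8 and 56.4 CPM in Ctrl and 40.5, 39.4 and 35.3 in siPAIP1 (log2 fold change -0.55, SE 0.077, adjusted p = 0.00671). SLC38A11, whose substrates are little known, had 4.91, 5.55 and 5.44 CPM in Ctrl and 3.12, 2.97 and 2.98 in siPAIP1 (log2 fold change -0.81, SE 0.12, adjusted p = 0.00761). For each of the 3 carriers all siPAIP1 libraries lay below Ctrl, and the calls were kept under each of the 17 alternatives. SLC38A5 is a member whose promoter holds an E-box. SLC38A3 lies on chromosome 3 (chr3:50205246-50221486), SLC38A5 on X (chrX:48458537-48470260) and SLC38A11 on 2 (chr2:164894354-164955525). Exons of an unnamed gene on the other strand overlap those of SLC38A11.

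SLC38A1, SLC38A2 and SLC38A4, of another transport system for small neutral amino acids, had no call. SLC38A2, whose mRNA is known to be induced by amino acid shortage, had 293, 289 and 308 CPM in Ctrl and 244, 251 and 191 in siPAIP1 (log2 fold change -0.37, SE 0.11, adjusted p = 0.0715). The lowest value was that of siPAIP1 replicate 3. Without that library the change was -0.26 and the adjusted p 0.0103, and DESeq2 gave 0.0273. Without any other single library the adjusted p of SLC38A2 was 0.0911 to 0.224, and with a replicate block 0.128. Limma on FPKM gave 0.169 and 0.180 with pseudocounts of 0.1 and 1. SLC38A1 had 71.1, 71.8 and 71.0 CPM in Ctrl and 65.0, 66.1 and 57.1 in siPAIP1 (log2 fold change -0.19, SE 0.078, adjusted p = 0.168). SLC38A4, the liver form of this system, was near the lower limit of the test, with 18, 12 and 16 counts in Ctrl and 6, 9 and 7 in siPAIP1 (log2 fold change -1.09, SE 0.33, adjusted p = 0.0737). SLC38A4 passed the filter through its Ctrl libraries alone, so its lower siPAIP1 values support nothing. For SLC38A2 and SLC38A1 all siPAIP1 values lay below Ctrl, yet no call was made.

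The members of SLC38 that sit on lysosomes or other inner membranes showed no call. SLC38A9, the lysosomal arginine sensor of the mTORC pathway, had a log2 fold change of -0.10 (SE 0.11, adjusted p = 0.573), and SLC38A7, the lysosomal glutamine exporter, 0.22 (SE 0.12, adjusted p = 0.271). SLC38A10, with 89.8, 106 and 98.7 CPM in Ctrl, had 107, 103 and 149.9 in siPAIP1, so that its higher mean came mostly from siPAIP1 replicate 3 (log2 fold change 0.29, SE 0.15, adjusted p = 0.254, and 0.088 without that library). For SLC38A6 the log2 fold change was -0.10 (SE 0.091, adjusted p = 0.475). SLC38A8 was not tested, with 9, 5 and 7 counts in Ctrl and 0, 1 and 3 in siPAIP1.

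In the other amino acid families, SLC36A1 and SLC43A1 were lower. SLC36A1, a proton-driven carrier of small amino acids found on lysosomes and at the cell surface, had 15.6, 16.5 and 16.4 CPM in Ctrl and 9.20, 11.6 and 12.4 in siPAIP1 (log2 fold change -0.55, SE 0.12, adjusted p = 0.0285). SLC43A1 had 83.0, 80.6 and 88.9 CPM in Ctrl and 70.2, 66.0 and 62.8 in siPAIP1 (log2 fold change -0.34, SE 0.076, adjusted p = 0.0293). In both cases the groups were apart, but the calls depended on single libraries. Leaving out Ctrl replicate 1, 2 or 3 or siPAIP1 replicate 2 took the adjusted p to 0.0704 to 0.115 for SLC36A1 and 0.0630 to 0.127 for SLC43A1, and limma on FPKM did not call SLC43A1 either (adjusted p = 0.0997 and 0.103 with pseudocounts of 0.1 and 1). Their relatives SLC36A4 (log2 fold change -0.10, SE 0.13, adjusted p = 0.637) and SLC43A2 (0.15, SE 0.13, adjusted p = 0.480) had overlapping groups. SLC43A1 is the other lower member with an E-box. SLC36A1 lies on chromosome 5 (chr5:151437046-151492379) and SLC43A1 on 11 (chr11:57484534-57515780).

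In SLC1, the glutamate carrier SLC1A2, best known from astrocytes, was low but clearly measured. It had 9.39, 10.8 and 9.93 CPM in Ctrl and 6.20, 4.66 and 4.64 in siPAIP1 (log2 fold change -0.96, SE 0.14, adjusted p = 0.00766), a call kept under each alternative. SLC1A7, a glutamate carrier of the retina, had 1.80, 1.78 and 2.30 CPM in Ctrl and 1.46, 1.03 and 1.62 in siPAIP1 (log2 fold change -0.52, SE 0.23, adjusted p = 0.185). The summed FPKM of the astrocyte markers GFAP, AQP4 and ALDH1L1 was 0.42 to 0.58 in Ctrl and 0.35 to 0.38 in siPAIP1. Most of it was ALDH1L1, at 0.29 to 0.48 in Ctrl and 0.19 to 0.24 in siPAIP1. AQP4 went the other way, from 0.05 to 0.1 in Ctrl to 0.09 to 0.14 in siPAIP1, and neither had a call. GFAP was at most 0.08. SLC1A1, SLC1A3 and SLC1A6 had at most 2 counts in any library. By contrast, the abundant neutral exchangers stayed close to Ctrl. SLC1A5 had 179, 186 and 189.9 CPM in Ctrl and 175, 171 and 169.6 in siPAIP1 (log2 fold change -0.11, SE 0.065, adjusted p = 0.312), and SLC1A4, a carrier of alanine, serine and cysteine, -0.13 (SE 0.080, adjusted p = 0.322). SLC1A2 lies on chromosome 11 (chr11:35251205-35420063).

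The SLC6 carriers of transmitters and osmolytes included 2 DEGs. SLC6A12, which takes up betaine and GABA and serves as an osmolyte carrier, had 4.34, 4.07 and 4.49 CPM in Ctrl and 1.75, 1.77 and 1.06 in siPAIP1. All siPAIP1 values were below every Ctrl value (log2 fold change -1.49, SE 0.21, adjusted p = 0.00674). SLC6A9, a glycine carrier, had 2.78, 3.44 and 3.28 CPM in Ctrl and 1.602, 1.49 and 1.56 in siPAIP1 (log2 fold change -1.03, SE 0.16, adjusted p = 0.00847). Its call was lost without Ctrl replicate 3 (adjusted p = 0.0511). Its change fell short of 2-fold without Ctrl replicate 2 (-0.97) and by limma (-0.82 and -0.32 with pseudocounts of 0.1 and 1). Its exons overlap those of CCDC24 on the other strand. SLC6A12 lies on chromosome 12 (chr12:190077-214570) and SLC6A9 on 1 (chr1:43991500-44031467).

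Of the other SLC6 members, SLC6A11, a GABA carrier, had 28.1, 27.2 and 29.2 CPM in Ctrl and 20.4, 19.7 and 26.9 in siPAIP1. Replicate 3 lay near Ctrl, and without it the change was called (log2 fold change -0.34, SE 0.13, adjusted p = 0.132 with it, and -0.49, adjusted p = 0.000199 without it). The taurine carrier SLC6A6 was split the same way, with 63.3, 69.9 and 67.8 CPM in Ctrl and 55.2, 56.1 and 79.7 in siPAIP1 (log2 fold change -0.074, SE 0.15, adjusted p = 0.767, and -0.27, adjusted p = 0.00883 without replicate 3). For both genes siPAIP1 replicate 3 was the highest of its group. The creatine carrier SLC6A8 had 69.3, 73.3 and 62.7 CPM in Ctrl and 78.0, 73.7 and 84.4 in siPAIP1 (log2 fold change 0.20, SE 0.088, adjusted p = 0.178), with no overlap by a small margin. A near copy of it, SLC6A10P, is also in the table, and only uniquely mapped reads were counted. SLC6A4, the serotonin carrier, was at 1.06 FPKM in Ctrl and 1.00 in siPAIP1 (log2 fold change -0.11, SE 0.10, adjusted p = 0.514). SLC6A2, the noradrenaline carrier, had 11 to 23 counts (log2 fold change 0.10, SE 0.30, adjusted p = 0.847). SLC6A14, a carrier of neutral and cationic amino acids, had 14, 15 and 19 counts in Ctrl and 8, 4 and 10 in siPAIP1 (log2 fold change -1.14, SE 0.41, adjusted p = 0.119). It passed the filter through its Ctrl libraries alone, which favors a lower value in siPAIP1, so nothing is read from its test.

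**Figure D4:**
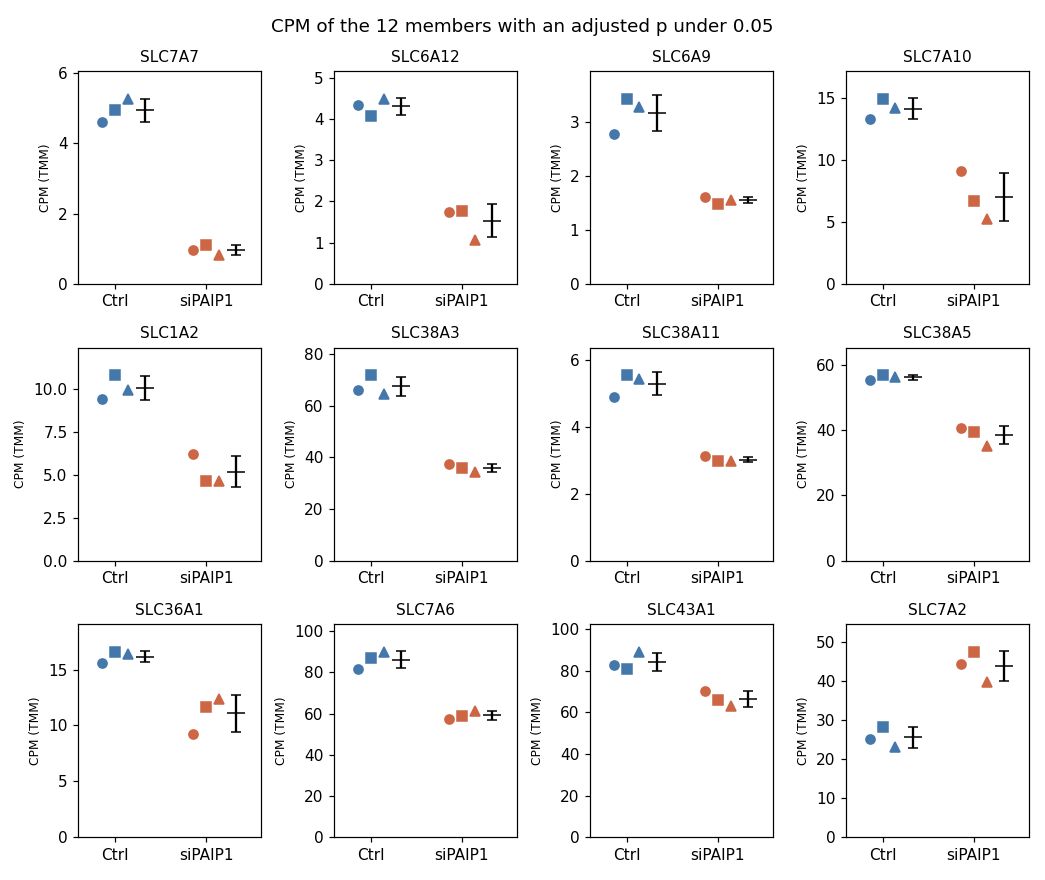
CPM (scaled by TMM) of the 12 members with an adjusted p under 0.05, ordered by log2 fold change, with 1 symbol per library (circle, square and triangle for replicates 1, 2 and 3) and the mean with SD beside them. Each axis starts at 0, and in all 12 panels the siPAIP1 symbols lie on a single side of the Ctrl symbols, above them in SLC7A2 alone.

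The other 17 members did not pass the filter, with at most 10 counts in any library. Besides those given above they included SLC6A3, SLC6A13, SLC6A16, SLC6A17, SLC6A18, SLC6A19, SLC6A20, SLC36A2, SLC36A3 and SLC43A3. SLC6A3, the dopamine carrier of neurons, had 0 to 2 counts. SLC6A19 and SLC6A20, amino acid carriers of kidney and gut, had 0 to 6 and 0 to 2. Of 15 members with a count of 0 in at least 1 library, all were among those not tested, so a difference in them was not detectable at this depth.

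The called members were not restricted to either end of the range of levels. Of 16 tested members with a mean of at least 5 FPKM in Ctrl, 5 were lower and 0 higher, and of 17 below 5 FPKM, 6 were lower and 1 higher, beside 6.2% lower and 5.68% higher over all tested genes. By role, the falls comprised 3 of 4 tested SLC7 light chains, 3 of 10 in SLC38, 2 of 7 SLC6 transmitter and osmolyte carriers, 1 of 2 SLC1 acidic amino acid carriers, 1 of 2 in SLC36 and 1 of 2 in SLC43, each to be read beside the 6.2% of all tested genes called lower. Both tested SLC1 neutral exchangers and the 1 tested member of the amino acid and orphan group of SLC6 (SLC6A14) had no call.

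Among 26 other carriers and partners of the same pathway, listed apart from the members, 23 were in the table, 16 were tested, 5 were lower (beside 6.2% of all tested genes) and 0 higher (beside 5.68%). By edgeR, PQLC2, a lysosomal carrier of cationic amino acids, was the 1 gene of the list that was higher at an unadjusted p under 0.05 (log2 fold change 0.19, adjusted p = 0.151). Besides SLC3A2, SLC7A5 and SLC7A11, the falls were in SLC16A10, a carrier of aromatic amino acids, and SLC18B1, a vesicular polyamine carrier. SLC16A10 had 4.82, 5.18 and 4.16 CPM in Ctrl and 3.06, 2.69 and 2.45 in siPAIP1 (log2 fold change -0.79, SE 0.15, adjusted p = 0.0174). SLC18B1 had 18.1, 17.4 and 17.7 CPM in Ctrl and 11.97, 13.2 and 11.2 in siPAIP1 (log2 fold change -0.55, SE 0.087, adjusted p = 0.0101). The adjusted p passed 0.05 for SLC16A10 without Ctrl replicate 1 or 2 or siPAIP1 replicate 2 (0.0673 to 0.0803), for SLC16A10 by limma (0.0691 and 0.0652 with pseudocounts of 0.1 and 1), and for SLC18B1 without Ctrl replicate 1 or 3 (0.0553 to 0.0595). Without siPAIP1 replicate 3 the list had 7 falls, beside 3808 of 15732 tested genes called in either direction. Without 1 Ctrl library or siPAIP1 replicate 2 it had 1 to 2, beside 463 to 683 of 15867 to 16025.

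Several members lie side by side in the genome, as paralogs do. SLC6A12 and SLC6A13 are 6.0 kb apart on the minus strand of chromosome 12, and the neighbour of the called SLC6A12 had at most 4 counts. SLC38A1 and SLC38A2 are 88.2 kb apart on chromosome 12, with log2 fold changes of -0.19 and -0.37. SLC43A3 and SLC43A1 are 57.0 kb apart on chromosome 11, where SLC43A3 had at most 7 counts. In these pairs a well measured member stood beside a barely detected one, except for SLC38A1 and SLC38A2.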

How the data were processed

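The 6 libraries (3 siPAIP1, 3 Ctrl) were sequenced as read pairs from poly(A) RNA. The authors trimmed reads with FASTX-Toolkit, aligned them to GRCh38 with TopHat2 and kept uniquely mapped reads. The deposited counts are raw fragments per gene, without normalization, and the deposited FPKM values were made by the authors from the same alignments and rounded to 2 decimals. For the counting tool, its strand setting and the annotation release, nothing is given in the sources used here.

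Counts were scaled by TMM (edgeR 4.0.16, R 4.3.3). The default filterByExpr kept 15528 of 30987 genes, at a CPM of 0.296 in 3 libraries. The quasi-likelihood test of edgeR compared the groups, with group as the only term and Benjamini-Hochberg adjustment over all tested genes. SEs were taken from the fold change and its F statistic. Called means an adjusted p under 0.05, and DEGs also need a change of 1 or more on the log2 scale. FPKM served for levels between genes. On counts simulated for these 15528 genes and 6 libraries, the test recovered 9%, 73% and 91% of 200 genes given 1.5-, 2- and 4-fold changes, with 3, 9 and 11 other genes called. Only those 200 genes were changed in each simulation, whereas 1845 genes were called in the data. The adjustment over all genes was thus stricter in the simulation, and these shares need not hold for the data. Members and lists were chosen with earlier results of these data known, so no list was tested as a set. Named are members with a call, a 2-fold change or groups apart, the 10 highest by FPKM, the highest of each role group, those not tested, and listed partners.

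Alternatives were RLE and upper-quartile factors, other count filters, protein-coding library sizes, DESeq2 1.42.0, edgeR's exact test, limma 3.58.1 on log2(FPKM + 0.1) and log2(FPKM + 1), a replicate block, and leaving out each library. Leaving out Ctrl replicate 2 and siPAIP1 replicate 3 together was chosen after seeing the data. Gene positions came from GENCODE 44 on GRCh38. Some items, a member that was not tested among them, are not reported here.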

Additional observations from a re-analysis of the deposited data

How the results depend on the processing

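Across 17 alternatives, 8 of the 12 called members kept their call in each, and the number of higher DEGs stayed at 0 and PAIP1 stayed lower. Leaving out 1 library gave 7 to 16 lower and 1 higher members, 2 to 5 lower DEGs, a median log2 fold change of the members of -0.37 to -0.25 and 1 to 7 lower partner genes. Under limma on log2(FPKM + 0.1) there were 2 lower DEGs and 3 lower partner genes, and on log2(FPKM + 1) 0 lower DEGs, 3 lower partner genes and a median of -0.0935, since the pseudocount shrinks changes of members at low FPKM. With a CPM of at least 1 required in 3 libraries, which removes the lowest members, the median was -0.25. Without both Ctrl replicate 2 and siPAIP1 replicate 3 there were 18 lower and 3 higher members, 9 lower and 1 higher partner genes and a median of -0.28; the cause was not tested. SLC6A6 reversed without siPAIP1 replicate 1 or 2 (0.0138 and 0.0069; range without 1 library -0.27 to 0.0138), and SLC7A1 without Ctrl replicate 3 or siPAIP1 replicate 3 (-0.0213 and -0.0143; range -0.0213 to 0.15), with no call at the reversed values. Deviations of same-numbered replicates from their group means correlated at 0.26, -0.28 and -0.15, and those of Ctrl replicate 2 and siPAIP1 replicate 3 at 0.39. With 3 libraries per group and siPAIP1 replicate 3 apart from its group, these correlations cannot decide whether the numbers pair the libraries. With the replicate block 10 members were lower and 1 higher, SLC43A1 and the partner gene SLC7A11 lost their calls (adjusted p = 0.0938 and 0.0558), and 825 of all tested genes were called against 1845. Over all tested genes, leaving out 1 library gave 463 to 3808 calls and leaving out both 4915. With 3 libraries per group, changes under 2-fold in members of few counts were hard to call.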
